A study of Homo sapiens with 14 samples.

Results

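The BCL2 family genes that set the threshold for mitochondrial apoptosis were followed in 2 human prostate cancer cell lines. The members were 10 genes listed by symbol, namely the pro-survival genes BCL2, BCL2L1 and MCL1, the effector genes BAX and BAK1, and the BH3-only genes BID, BAD, BBC3, PMAIP1 and BCL2L11. All 10 were found in both expression tables, among 44591 genes in the LNCaP table and 24199 features in the DU145 table. The study asked how PAX6, a developmental transcription factor, acts in neuroendocrine prostate cancer, and 8 of its RNA-seq libraries are described here. LNCaP is an androgen-responsive adenocarcinoma line, and 1 library of parental cells was set beside 1 library of LNCaP-ENZ cells, which had been kept in 20 µM enzalutamide, an antiandrogen drug, for 30 days. DU145 is an androgen-independent line, and 3 libraries carrying a control hairpin (shCON) were compared with 3 carrying a hairpin against PAX6 (shPAX6), all delivered by lentivirus with puromycin selection. Which of the study's PAX6 hairpins was sequenced is not given in the sources used here, and neither is whether the 3 libraries of a DU145 group came from separate cultures, so the p-values below measure only the spread between these samples.

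Apoptosis through mitochondria is decided by binding between these proteins. BAX and BAK1 open pores in the outer mitochondrial membrane and release cytochrome c, BCL2, BCL-xL (the long product of BCL2L1) and MCL1 hold them in check, and BH3-only proteins tip the balance by occupying the pro-survival proteins or by activating the effectors directly. BBC3 encodes PUMA and PMAIP1 encodes NOXA. BCL2L11 (BIM) is a known target of FOXO factors. The mRNA levels reported here do not separate isoforms with opposed functions, such as the long and short forms of BCL2L1 and MCL1, and they do not measure protein.

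The line labels were checked first. In LNCaP, the prostate marker HOXB13 had 11374 and 10025 counts in the parental and LNCaP-ENZ libraries, and TMPRSS2, an androgen-induced gene, had 5394 and 1471. In DU145, KLK2, FOLH1, TMPRSS2 and HOXB13 were at 0 in all 6 libraries, while KRT8 lay between 635 and 993 FPKM. The 5 leukocyte markers reached at most 28 counts in LNCaP and 0.922 FPKM in DU145, and of the fibroblast markers COL1A2 and DCN were at 0 in all 8 libraries, while COL1A1 had 456 and 231 counts in LNCaP. PAX6 itself had 0.839, 1.23 and 1.57 FPKM in shCON libraries 1, 2 and 3 and 0.0153, 0.274 and 0.0778 in the shPAX6 libraries, without overlap. In LNCaP PAX6 had only 11 counts in the parental library and 4 in LNCaP-ENZ. The LNCaP libraries held 20468001 and 17945722 counts, so that 3 counts, the one-sided 95% Poisson limit of a count of 0, equal 0.147 and 0.167 counts per 1000000 (CPM). No depth is known for DU145, whose values are FPKM, fragments per kilobase of transcript per 1000000 mapped fragments.

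Promoter sequence is shown for the members on which the results below turn. BBC3 and PMAIP1 were the members that differed more than 2-fold in LNCaP, BCL2L11 is the known FOXO target, and BAX varied widely among the shPAX6 libraries. Each line gives the 250 bases before the RefSeq start of the gene on GRCh38.p14, read along the gene's own strand. Capitals mark the E-box CACGTG in BBC3 (chr19:47232668-47232917, minus strand) and BAX (chr19:48954625-48954874, plus strand), the GC box GGGCGG on either strand in PMAIP1 (chr18:59899746-59899995, plus strand), and the FOXO motif GTAAACA in BCL2L11 (chr2:111120664-111120913, plus strand).
BBC3: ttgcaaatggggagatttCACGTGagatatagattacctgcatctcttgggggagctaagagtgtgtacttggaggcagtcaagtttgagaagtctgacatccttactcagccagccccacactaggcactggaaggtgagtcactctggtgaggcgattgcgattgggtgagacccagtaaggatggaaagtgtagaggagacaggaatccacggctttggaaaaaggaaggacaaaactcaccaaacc
BAX: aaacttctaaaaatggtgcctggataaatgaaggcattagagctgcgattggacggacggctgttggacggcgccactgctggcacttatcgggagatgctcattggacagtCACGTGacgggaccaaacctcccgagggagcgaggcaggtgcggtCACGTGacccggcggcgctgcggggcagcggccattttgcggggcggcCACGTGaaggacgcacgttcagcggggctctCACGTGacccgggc
PMAIP1: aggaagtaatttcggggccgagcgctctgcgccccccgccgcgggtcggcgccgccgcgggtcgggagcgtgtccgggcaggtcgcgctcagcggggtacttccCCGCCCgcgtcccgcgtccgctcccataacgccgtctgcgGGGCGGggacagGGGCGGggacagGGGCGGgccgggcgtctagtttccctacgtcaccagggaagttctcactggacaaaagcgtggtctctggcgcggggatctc
BCL2L11: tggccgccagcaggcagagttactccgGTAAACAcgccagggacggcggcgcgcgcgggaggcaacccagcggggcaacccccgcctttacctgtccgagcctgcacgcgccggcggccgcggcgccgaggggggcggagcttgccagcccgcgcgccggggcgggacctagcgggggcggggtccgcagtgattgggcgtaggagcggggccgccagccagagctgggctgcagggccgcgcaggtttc

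Of the 10 members, 9 had a promoter entry, and MCL1 did not. Some have several starts, so that the 9 members have 15 windows, and shares are given over windows. Of these, 5 are windows of BID that overlap in part, and the windows of BAD overlap too. A single site can therefore be counted in several windows. The E-box was found in BAX, BBC3 and BID, in 4 of 15 windows against 6.32% of 34943 promoter windows, and BAX held 4 copies. The GC box was found in 6 of the 9 members and 10 of 15 windows, against 42.5% of all windows, with 4 copies in PMAIP1. GTAAACA was found in BCL2L11 alone among them, 1 of 15 windows, against 2.98% of windows. The CRE core TGACGT was found in BAD and PMAIP1 (3 of 15 windows, against 7.09%) and the CCAAT box in BAD, BAK1, BAX, BBC3 and BCL2L11 (6 of 15 windows, against 32%). Both strands were searched, and these matches describe the letters of the window, not occupied sites. The windows differed in base composition, with 49.2% GC in BBC3, 62.8% in BAX, 72.8% in PMAIP1 and 76.8% in BCL2L11, beside a median of 58% over all windows.

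The first question was which members the cells express, and the answer can be read only from values per length. In LNCaP these are TPM, transcripts per 1000000. BCL2L1 and MCL1 led, with 31.3 and 33.6 TPM in parental cells and 24.4 and 20.9 in LNCaP-ENZ, and their order differed between the libraries. BAD (17.2 and 18.3 TPM), whose product binds BCL-xL and BCL2, came next. BAK1, BID, BAX and BCL2L11 lay between 9.05 and 15.1 TPM, and no adjacent pair of these 4 in the order of the means had ranges that stood apart. BBC3 had 2.75 and 1.05 TPM and PMAIP1 had 2.16 and 0.962, again with overlapping ranges. BCL2 was the lowest of the 10 in both libraries, with 0.624 TPM in parental cells and 0.737 in LNCaP-ENZ.

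DU145 placed BCL2L1 first in all 6 libraries, from 132 to 174 FPKM, and BCL2 last, from 0.0536 to 0.171 FPKM. BAD (mean 92.2 FPKM) and MCL1 (89.8) did not differ beyond their spread, with BAD the higher in 3 of 6 libraries. BID (53.8) and BAX (45.5) overlapped too, with BID the higher in 5 of 6. BAK1 (23.7) and PMAIP1 (12.9) each stood apart from their neighbours in every library. BCL2L11 (2.32) and BBC3 (1.69) overlapped, with BCL2L11 the higher in 4 of 6. BCL2 therefore made up at most 0.0619% of the summed FPKM of the 3 pro-survival genes in any DU145 library, and 0.953% and 1.60% of the summed TPM in parental LNCaP and LNCaP-ENZ.

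**Figure D1:**
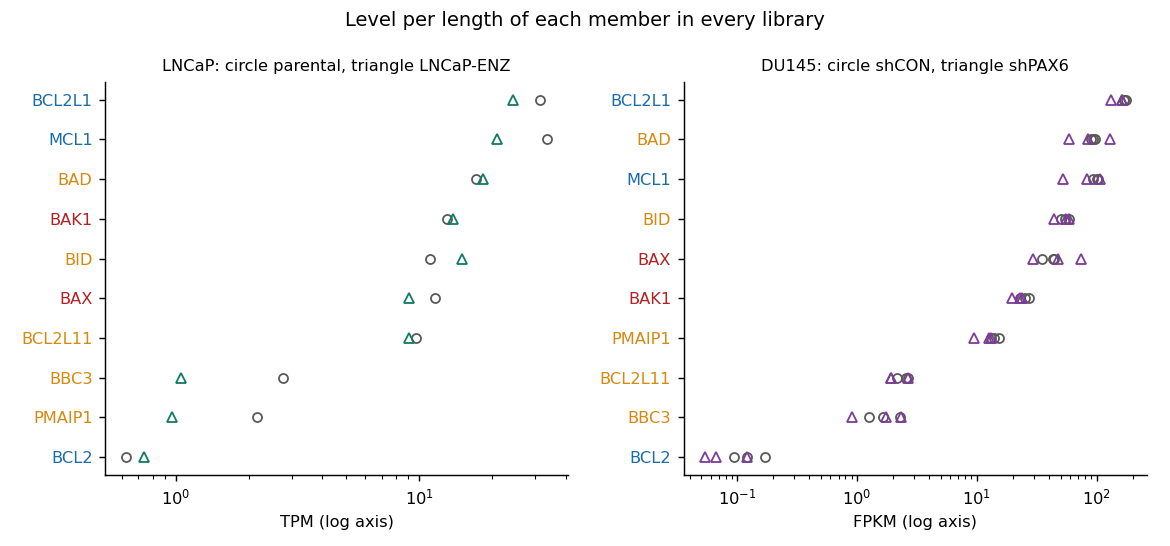
Level per length of the 10 members in every library, TPM in LNCaP on the left and FPKM in DU145 on the right, on log axes, with gene names in blue for pro-survival, red for effector and orange for BH3-only genes. BCL2 sits at the bottom in both lines, PMAIP1 lies above BCL2L11 in DU145 and below it in LNCaP.

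Because the tables were normalised separately, the lines can only be set side by side, here after rescaling every library to the same total over the gene symbols that both tables hold (per 1000000 of that total). BCL2L11 had 32.4 in parental LNCaP and 5.64 ± 0.70 (SD, n = 3) in DU145 shCON. PMAIP1 had 7.20 in parental LNCaP and 32.2 ± 2.83 in shCON. On the same scale BAX had 38.8 and 92.9 ± 10.8, and BCL2L1 had 104 and 390.4 ± 12.1. The differing ranks of BCL2L11 and PMAIP1 do not depend on this rescaling, since PMAIP1 exceeded BCL2L11 in all 6 DU145 libraries and BCL2L11 exceeded PMAIP1 in both LNCaP libraries. In LNCaP the gene RN7SK alone took 38.8% of the TPM in parental cells and 38.5% in LNCaP-ENZ. Whether the libraries of the lines sampled the same kinds of RNA was not tested. No test was made between lines.

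The next comparison asked how the members differed after long enzalutamide exposure. With 1 library per arm there is no replicate check and no p-value, the intervals are exact 95% Clopper-Pearson intervals that cover counting error only, and a member is counted when it passed 1.5-fold on the log2(CPM + 0.1) scale. BBC3, PMAIP1 and MCL1 were lower in LNCaP-ENZ by this measure and no member was higher. That is 30% of the members, beside a background of 30.6% of 14767 genes with a mean of at least 1 CPM (24.1% lower and 6.49% higher), so the share of members was that of genes at large. Fewer cells that express a gene and less RNA per cell cannot be told apart in these bulk libraries. The median log2 ratio of the members was -0.14 and that of all genes -0.15.

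Among the pro-survival genes, MCL1, whose product turns over quickly, had 2689 counts in parental cells and 1557 in LNCaP-ENZ. These counts correspond to 131 and 86.8 CPM and a log2 ratio of -0.60 (interval -0.69 to -0.51), 1.51-fold lower. MCL1 lies just past the 1.5-fold limit, and with edgeR's TMM factors, which bring the median of all genes from -0.15 to -0.01, its log2 ratio was -0.45. BCL2L1 had 2067 and 1499 counts, or 101 and 83.5 CPM, with a log2 ratio of -0.27 (-0.37 to -0.18). BCL2 had 81 and 89 counts, 3.96 and 4.96 CPM, and its log2 ratio of 0.32 had an interval that includes 0 (-0.13 to 0.78). Within the pro-survival sum of TPM, MCL1 went from 51.3% in parental cells to 45.4% in LNCaP-ENZ and BCL2L1 from 47.8% to 53.01%. A ratio within a library does not depend on the scaling between libraries.

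The effectors differed little in LNCaP. BAX had 298 and 217 counts, 14.6 and 12.1 CPM, with a log2 ratio of -0.27 (-0.53 to -0.01). BAK1 had 557 and 551 counts, 27.2 and 30.7 CPM, with a log2 ratio of 0.17 (0.00 to 0.35). The ratio of BAX to BAK1 in TPM was 0.899 in parental cells and 0.662 in LNCaP-ENZ.

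The BH3-only genes went in different directions. BBC3, the gene of PUMA, had 113 counts in parental cells and 40 in LNCaP-ENZ, 5.52 and 2.23 CPM. Its log2 ratio of -1.27 (-1.87 to -0.78) was the lowest of the 10 members, 2.41-fold lower and at percentile 4.92 of all genes. PMAIP1, the gene of NOXA, whose product binds chiefly MCL1, had 82 and 34 counts, 4.01 and 1.89 CPM. It was 2.06-fold lower, with a log2 ratio of -1.04 (-1.70 to -0.49) at percentile 8.59. Both genes had few counts, and both lay more than 2-fold lower, as did 9.57% of all genes, while 0 members were more than 2-fold higher, beside 1.84%. With TMM factors the log2 ratio of BBC3 was -1.13 and that of PMAIP1 -0.90.

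BID, which links death receptors to mitochondria once caspase-8 has cut it, was the member furthest above 0. It had 578 counts in parental cells and 731 in LNCaP-ENZ, 28.2 and 40.7 CPM, with a log2 ratio of 0.53 (0.37 to 0.69). This is 1.44-fold higher, at percentile 92.0 of all genes, and with TMM factors the log2 ratio was 0.67, past 1.5-fold. Under that scaling 1 member was higher and 2 were lower, and of all genes 1601 were higher and 2621 lower, against 958 and 3554 by library totals. BAD had 412 and 409 counts, 20.1 and 22.8 CPM, with a log2 ratio of 0.18 (-0.02 to 0.38). BCL2L11 had 1185 and 1026 counts, 57.9 and 57.2 CPM, and a log2 ratio of -0.02 (-0.14 to 0.10) that was 0.13 with TMM factors.

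**Figure D2:**
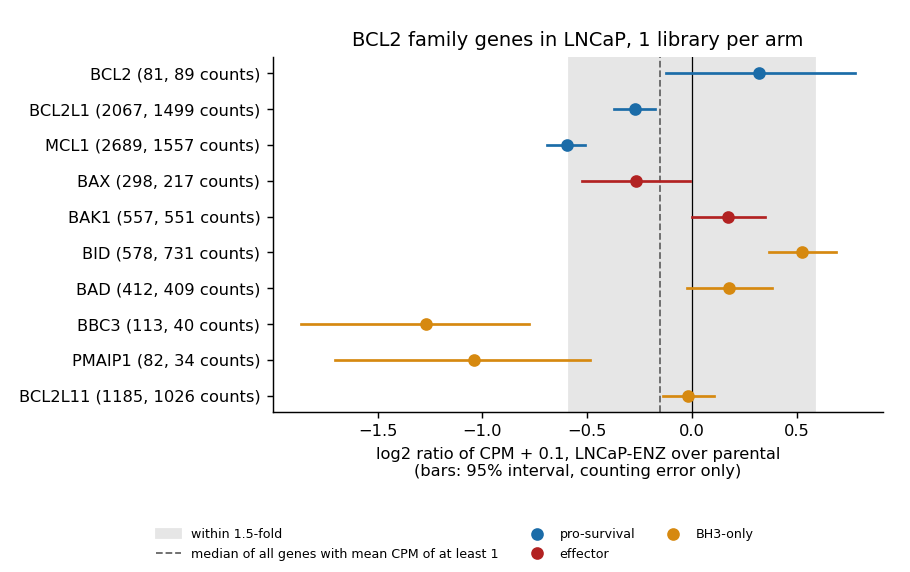
Log2 ratio of CPM + 0.1, LNCaP-ENZ over parental LNCaP, for each member, with counts of the parental and LNCaP-ENZ library beside the name and bars for the 95% interval of counting error. BBC3 and PMAIP1 lie left of the grey 1.5-fold band at -1.27 and -1.04, MCL1 lies on its edge at -0.60, and the dashed line marks the median of all genes at -0.15.

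Sums by role summarise the balance on the TPM scale. The pro-survival sum was 65.5 TPM in parental cells and 46.0 in LNCaP-ENZ, while the BH3-only sum was 42.9 and 44.4. The pro-survival to BH3-only ratio was therefore 1.53 in parental cells and 1.04 in LNCaP-ENZ, and the pro-survival to effector ratio was 2.66 and 2.01. BAD made up 40.0% and 41.2% of the BH3-only sum and BID 25.8% and 33.9%, so BBC3 and PMAIP1 carried little weight in it. These sums hold only for the genes listed. Outside the members, BOK had 38.3 TPM in parental cells and 32.4 in LNCaP-ENZ, above every member in each library. BCL2L2 had 10.0 and 7.66 TPM. Of the other BH3-only genes, BMF (9.12 and 5.65 TPM) was lower in LNCaP-ENZ. BIK had 14.1 and 11.7 TPM, and its log2 ratio of -0.18 had an interval that includes 0 (-0.45 to 0.09). HRK (0.222 and 0.626 TPM) rested on 8 and 21 counts and did not reach a mean of 1 CPM.

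In DU145 the question was whether the members differed between shPAX6 and shCON. None of the 9 members that could be tested passed limma at a Benjamini-Hochberg adjusted p of 0.05, beside a background of 1.2% of 13574 features (0.177% higher and 1.02% lower). At an unadjusted limma p under 0.05 the count was also 0 of 9, where 18.3% of all features passed. BCL2 was not tested, since its mean was under the 0.5 FPKM required of a feature. Of the 9 fold changes 8 were below 0, with a median of -0.17 on the log2(FPKM + 0.1) scale beside -0.12 over all features. Centring the libraries on their medians raised every log2 fold change by the same amount, taking the median of all features to 0.06 and with it BCL2L1 (0.00077), BID (0.12), BAD (0.07) and BBC3 (0.06) to above 0. The sign of these small changes is thus defined only relative to the scaling chosen. The exact permutation test of 3 against 3 libraries cannot go below p = 0.1.

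BCL2L1 had 168.5, 170.4 and 174 FPKM in shCON libraries 1, 2 and 3 and 132, 163 and 162 in the shPAX6 libraries. All 3 shPAX6 values lay below all 3 shCON values, library 1 furthest. The means were 171 ± 3.00 and 152 ± 17.3 (SD, n = 3 each), with a log2 fold change of -0.17 ± 0.13 (SE) and a limma adjusted p of 0.549. PMAIP1 was the only other member without overlap, with 15.3, 13.2 and 13.8 FPKM in shCON and 9.54, 12.5 and 13.1 in shPAX6. Library 1 was again the lowest. Its log2 fold change was -0.27 ± 0.17 (SE) with a limma adjusted p of 0.449. Groups did not overlap in 2 of 9 members, beside 26.7% of all features, and the exact permutation p was 0.1 for both.

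MCL1 had 100, 93.4 and 102 FPKM in shCON and 52.5, 106 and 83.8 in shPAX6. The shCON values were close together, and the shPAX6 values lay on both sides of them. The means were 98.8 ± 4.73 and 80.9 ± 27.0, and the log2 fold change was -0.35 ± 0.25 (SE), with a 95% interval from -0.92 to 0.23 and a limma adjusted p of 0.514. BCL2, at the bottom of the range, had 0.0939, 0.121 and 0.171 FPKM in shCON and 0.0661, 0.0536 and 0.122 in shPAX6. These groups overlapped, with an exact permutation p of 0.3.

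The effector BAX, whose protein DU145 is known to lack, had 43.9, 43.6 and 34.8 FPKM in shCON and 74.1, 29.2 and 47.4 in shPAX6. Library 1 of shPAX6 was the highest of the 6 and library 2 the lowest. The log2 fold change was 0.21 ± 0.31 (SE), with an interval from -0.53 to 0.94 and a limma adjusted p of 0.788, and without shPAX6 library 1 it was -0.12. BAK1 was steadier, with 23.1, 25.1 and 27.2 FPKM in shCON and 19.7, 24.0 and 23.1 in shPAX6. The groups overlapped, and the log2 fold change was -0.18 ± 0.14 (SE) with a limma adjusted p of 0.569.

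Of the BH3-only genes, BAD had 89.0, 93.7 and 97.1 FPKM in shCON and 130, 59.0 and 84.3 in shPAX6. As for BAX, shPAX6 libraries 1 and 2 were the highest and the lowest of the 6. The log2 fold change was -0.11 ± 0.27 (SE) with a limma adjusted p of 0.879. BBC3 had 1.64, 2.28 and 1.26 FPKM in shCON and 2.32, 0.906 and 1.73 in shPAX6, with the same libraries at the extremes. Its interval was the widest of the members, from -0.996 to 0.77 around a log2 fold change of -0.11 with a limma adjusted p of 0.917.

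BID had 50.2, 59.1 and 54.6 FPKM in shCON and 59.3, 43.8 and 55.8 in shPAX6. The groups overlapped, and the log2 fold change of -0.05 ± 0.15 (SE) had a limma adjusted p of 0.902. BCL2L11 had 2.57, 2.17 and 2.67 FPKM in shCON and 1.93, 2.67 and 1.90 in shPAX6. These groups overlapped as well, with a log2 fold change of -0.19 ± 0.22 (SE) and a limma adjusted p of 0.712. The 95% intervals of the 9 members allow changes of up to 1.92-fold upwards (BAX) and down to 0.501 of the shCON level (BBC3), so a p that misses the threshold does not show that a member was unchanged.

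**Figure D3:**
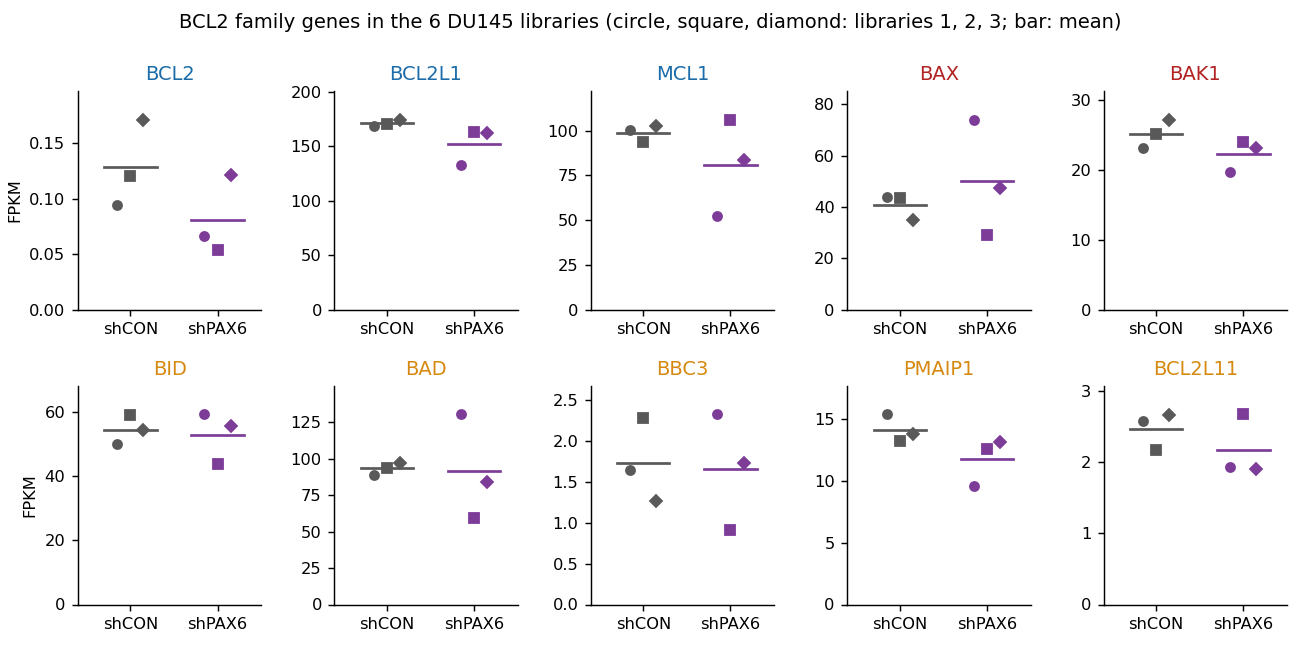
FPKM of each member in the 6 DU145 libraries, with a panel and a linear axis from 0 for each gene, circles, squares and diamonds for libraries 1, 2 and 3, and bars for the means of 3. The shPAX6 circle is the highest value and the shPAX6 square the lowest for BAX, BAD and BBC3, and the order is turned for MCL1.

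The spread of the shPAX6 libraries had a pattern of its own. BAX, BID, BAD and BBC3 were highest in shPAX6 library 1 and lowest in library 2, and BCL2L1, MCL1 and BAK1 were the other way round. These are 4 and 3 of 9 members, beside 25.8% and 46.8% of all features. Over 12009 features with an annotated transcript, the log2 ratio of library 1 to library 2 went with transcript length (Spearman rho = -0.62) and with GC content (rho = 0.45). These correlations are across genes, which share the same libraries, and are given as descriptions.

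BAX (transcript of 1358 bases, 58.9% GC), BAD (1157 bases, 66.3%) and BBC3 (1846 bases, 69.7%) had log2 ratios of library 1 to library 2 of 1.34, 1.14 and 1.27. All 3 transcripts are shorter than the median of 3807 bases and richer in GC than the median of 48.3%. MCL1, with 4550 bases and 44.7% GC, had a log2 ratio of -1.02. Other short transcripts, apart from that of BID, went the other way. PMAIP1 (1899 bases, 36.7% GC) had -0.39, and BAK1 (2212 bases, 58.8%) and BCL2L1 (3257 bases, 58.2%), both shorter and richer in GC than the medians, had -0.29 and -0.30. After each library was corrected for transcript length, BAX had a log2 fold change of 0.10, BAD -0.23, BBC3 -0.18 and MCL1 -0.31, and 0 of 9 members passed limma. What made the libraries differ by length was not tested.

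**Figure D4:**
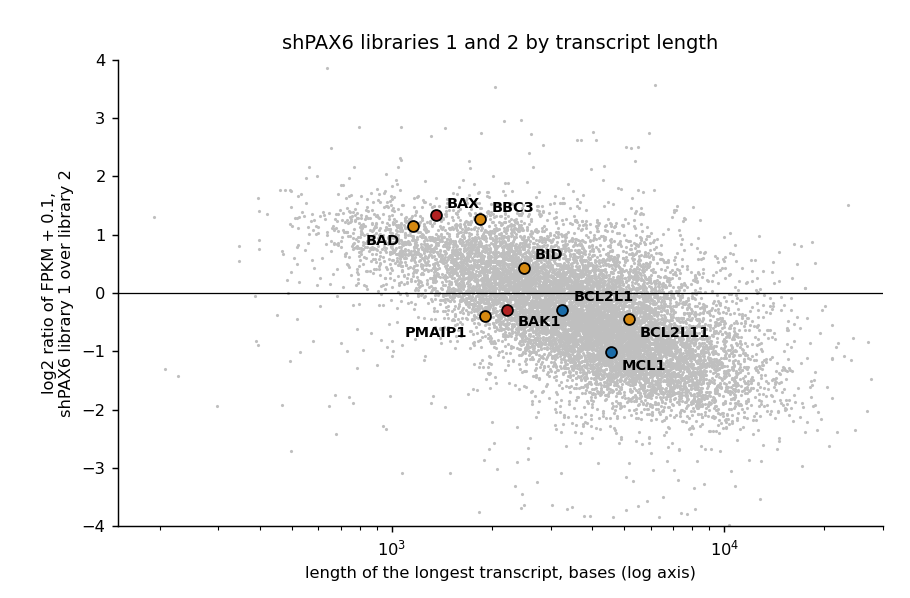
Log2 ratio of FPKM + 0.1 between shPAX6 library 1 and library 2 against the length of the longest transcript on a log axis, with all features with an annotated transcript in grey and the 9 tested members in colour (blue pro-survival, red effector, orange BH3-only); features beyond 4 log2 units are outside the axis. Short transcripts such as those of BAX and BAD lie above 0 and that of MCL1 lies below.

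The split reached the balance between roles, again taken over the members only. The BAX to BAK1 ratio in FPKM was 1.90, 1.74 and 1.28 in shCON and 3.77, 1.22 and 2.06 in shPAX6. The pro-survival to BH3-only ratio was 1.70, 1.55 and 1.64 in shCON and 0.909, 2.26 and 1.57 in shPAX6, so that shPAX6 library 1 lay below and library 2 above every shCON library. The share of BCL2L1 in the pro-survival sum was 62.6%, 64.6% and 63.0% in shCON and 71.6%, 60.5% and 65.8% in shPAX6. None of these 3 balances separated shPAX6 from shCON.

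Around the members, 49 other apoptosis genes in 6 lists were read in the same way. In LNCaP, 40 of them had a mean of at least 1 CPM, and 15 of these (37.5%, beside 30.6% of all genes) passed 1.5-fold, 14 of them lower and 1 higher in LNCaP-ENZ. With TMM factors 8 of the 40 were lower and 2 higher, beside 2621 and 1601 of 14767 genes at large. The inhibitors of apoptosis had 4 of 5 genes lower past 1.5-fold, beside 24.1% of all genes, and a median log2 ratio of -0.82. BIRC2 (cIAP1) had 542 counts in parental cells and 171 in LNCaP-ENZ, a log2 ratio of -1.46 (-1.73 to -1.22). BIRC3 (cIAP2) had 235 and 78 counts, a log2 ratio of -1.38 (-1.79 to -1.03). Both were more than 2-fold lower.

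The counts that follow can be read beside the 24.1% of all genes that were lower and the 6.49% that were higher past 1.5-fold. Of the apoptosome and caspase genes, 3 of 10 were lower past 1.5-fold and 0 higher. ENDOG, a mitochondrial nuclease, was the furthest above 0 in that list at 0.18. In the death receptor pathway 2 of 9 were lower and 1 higher, and FAS, a death receptor, had 90 and 38 counts with a log2 ratio of -1.02 (-1.64 to -0.49). In the rest of the BCL2 family 1 of 4 was lower, the BH3-only gene BMF at -0.60, which like MCL1 lay at the limit and was at -0.46 with TMM factors, and the effector-like BOK stood at -0.16. Of the ubiquitin ligases and the deubiquitinase that act on MCL1 protein, 1 of 5 was lower, USP9X at -0.76, and BTRC was the nearest to 0 at -0.03.

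Transcription factors that are known to act on BCL2 family genes had 3 of 7 lower and 0 higher in LNCaP-ENZ, beside the same 24.1% and 6.49% of all genes. FOXO1 had 429 counts in parental cells and 95 in LNCaP-ENZ, with a log2 ratio of -1.97 (-2.32 to -1.66). BCL2L11, which carries the FOXO motif printed above, stood at -0.02 in the same libraries, where the members ranged from -1.27 (BBC3) to 0.53 (BID). FOXO3, a more abundant factor of the same family named here after its values were seen, had 28.4 and 21.0 TPM (4198 and 2884 counts) and a log2 ratio of -0.35. Whether FOXO factors act on any member in these cells was not tested.

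In DU145, 41 of the 49 list genes passed the filter and 0 passed limma after Benjamini-Hochberg adjustment, while 9 had an unadjusted p under 0.05 (22.0%, beside 18.3% of all features, where 1.2% passed after adjustment). The smallest adjusted p was that of CASP9, the initiator caspase of the apoptosome, at 0.105. CASP9 had 7.27, 7.74 and 8.85 FPKM in shCON and 4.73, 5.07 and 5.43 in shPAX6, with a log2 fold change of -0.64 ± 0.16 (SE). CYCS, the cytochrome c gene, had 53.3, 48.9 and 42.7 FPKM in shCON and 68.0, 64.1 and 69.3 in shPAX6, with a log2 fold change of 0.48 ± 0.13 (SE) and a limma adjusted p of 0.118. Neither pair of groups overlapped.

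BIRC2 had 14.8, 13.1 and 13.8 FPKM in shCON and 17.9, 37.8 and 28.1 in shPAX6, with a log2 fold change of 0.94 and a limma adjusted p of 0.126. Its limma adjusted p was 0.0496 with median centring, 0.000128 with array weights and 0.00633 without shPAX6 library 1 (log2 fold change 1.22). Over all alternatives its limma adjusted p ranged from 0.000128 to 0.465. Of all features, 4569 of 13574 passed with array weights, 924 of 13625 without shPAX6 library 1 and 899 of 13562 without shPAX6 library 2. DDIT3, the stress factor CHOP, had a log2 fold change of 0.82 and BCL2A1, a pro-survival relative of BCL2, 0.83, with limma adjusted p-values of 0.194 and 0.158. DDIT3 had a limma adjusted p of 0.04 with the transcript length correction, 0.000672 with array weights and 0.0215 without shPAX6 library 2 (log2 fold change 1.13), in a range from 0.000672 to 0.563 over all alternatives. The groups of these 3 genes did not overlap, and in all 13 of 41 list genes had groups apart, beside 26.7% of all features.

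The remaining genes named by the rule in DU145 had limma adjusted p-values from 0.202 to 0.865. They were HUWE1, an MCL1 ubiquitin ligase, with a log2 fold change of 0.41, the BH3-only gene BIK (-0.57), the decoy receptor TNFRSF10C (-0.62), the caspase inhibitor XIAP (-0.33), FAS (0.23) and the ubiquitin ligase subunit BTRC (-0.12). With array weights HUWE1, TNFRSF10C and BIK passed (limma adjusted p of 0.00977, 0.0155 and 0.0225), while XIAP, FAS and BTRC did not. CASP9, CYCS and BCL2A1 passed there too (limma adjusted p of 0.00354, 0.00174 and 0.0129), beside 4569 of 13574 features. The medians of the 6 lists lay between -0.37 and 0.02. FOXO1 was below the filter in DU145.

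**Figure D5:**
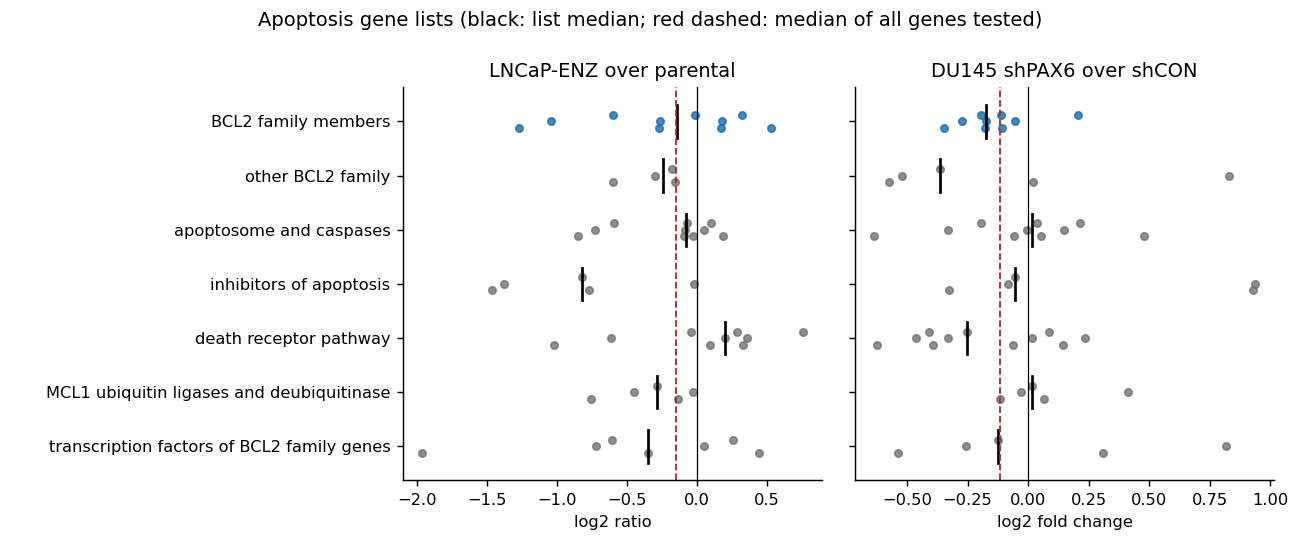
Log2 ratio in LNCaP (left) and log2 fold change in DU145 (right) of each gene that passed the filter, by list, with the 10 members (9 in DU145) in blue, list medians as black bars and the median of all genes as a red dashed line. In LNCaP the inhibitors of apoptosis have the lowest list median, at -0.82, and the members' median of -0.14 sits on that of all genes.

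Some member values may hold reads of neighbours, because strand was not stated for the counting. Exons of BAD overlap those of GPR137 on the opposite strand (1376 and 957 counts in parental LNCaP and LNCaP-ENZ, against 412 and 409 for BAD). Exons of BCL2L1 overlap ABALON (300 and 219 counts), again on the opposite strand. In the annotation used here, where MCL1 starts at 150533371, its exons overlap ADAMTSL4 (193 and 105 counts) on the opposite strand. The authors start MCL1 at 150547027, and whether that shorter model overlaps ADAMTSL4 was not checked. For BBC3 the overlapping gene, MIR3191, had 0 counts in both LNCaP libraries, and PMAIP1 had no overlapping gene in the annotation. On GRCh37 the authors' table places BBC3 at chr19:47724079-47736023 on the minus strand, PMAIP1 at chr18:57567192-57571538 on the plus strand and MCL1 at chr1:150547027-150552214 on the minus strand.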

How the data were processed

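By the methods of the study, oligo-dT primed the cDNA, HISAT2 placed the reads on GRCh37 and StringTie quantified them. The sample labels describe another library kit. The LNCaP table of the authors gives unnormalised counts for each gene beside TPM, computed as count over gene length. The DU145 table was deposited without a named unit and was read as FPKM. The 6 ATAC-seq samples were not used here.

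LNCaP counts were divided by library totals. RN7SK took 12.3% and 13.0% of them. Ratios used a pseudocount of 0.1 CPM, with exact 95% Clopper-Pearson intervals and Poisson limits. DU145 values were tested with limma 3.58.1 (lmFit, eBayes with trend, two-sided) on log2(FPKM + 0.1) for the 13574 features averaging 0.5 FPKM or more, adjusted by Benjamini-Hochberg with a threshold of 0.05. For single members an exact two-sided permutation test was run. TMM factors came from edgeR 4.0.16 and size factors from DESeq2 1.42.0, as alternatives only. Scripts were tested on simulated data. GC content and length came from the longest annotated transcript (88.5% of tested features), and the corrections used loess with a span of 0.5. Promoter sequences are from RefSeq.

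The members and lists were chosen with earlier results of these data known. All members are named. Of each other list, genes with an adjusted p under 0.05 in DU145 or a difference of at least 2-fold in LNCaP (with at least 50 counts in a library) are named, and otherwise the gene with the largest rise and the gene with the largest fall. Some genes that this rule or the marker lists hold are not reported here. Alternatives were other pseudocounts, filters, scalings and corrections, array weights, a replicate block and leaving out each DU145 library.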

Additional observations from a re-analysis of the deposited data

How the results depend on the processing

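In DU145, 0 members passed limma under each of the 18 alternatives. These tested 9 members, or 10 with BCL2 where there was no filter on low values. The smallest limma adjusted p among the 9 was 0.0782 (MCL1). Among all features the number that passed, 163 at first, was 108 without a filter on low values, 100 with median centring, 4569 with array weights (which gave shPAX6 library 1 a weight of 0.163 and library 3 one of 5.74) and 697 with the transcript length correction, which was chosen after seeing the data. Leaving out 1 library gave 0 to 924, with 924 without shPAX6 library 1, 899 without library 2, 10 without library 3, 0 without shCON library 1 or 3 and 5 without shCON library 2. Of the list genes, 1 of 41 passed with median centring, beside 100 of 13574 features. With array weights 15 of 41 passed, beside 4569 of 13574, and with the length correction 2 of 41, beside 697 of 12009. With 1 library left out, 0 to 2 list genes passed, beside the 0 to 924 features above. With quantile normalization 74 features were higher and 162 lower, and with median centring 28 and 72.

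Same-numbered shCON and shPAX6 libraries did not deviate together (correlations of -0.17, -0.37 and 0.05), so the numbers were not taken as pairs. With the replicate number as a block 0 features passed, and 5 with the block and a GC correction. The block left 0 members past the threshold. With the GC correction the log2 fold change was 0.15 for BAD and 0.22 for BBC3, with or without the block. It grew in size for PMAIP1 (-0.48), MCL1 (-0.44), BAX (0.37) and BCL2L11 (-0.25). For BCL2L1 (-0.02), BAK1 (-0.01) and BID (-0.04) it shrank.

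Signs turned for some members that had not passed the test. Median centring, which by construction moves every feature by the same amount and so turns those just below 0, gave 0.00077 for BCL2L1, 0.123 for BID, 0.0676 for BAD, 0.0643 for BBC3 and 0.059 for the list gene BTRC. Quantile normalization gave 0.14 for BBC3, 0.0259 for BCL2L11 and 0.0832 for BTRC, and array weights 0.0163 for BID. With 1 library left out in turn, BAX ranged from -0.12 (without shPAX6 library 1) to 0.55 (without shPAX6 library 2), BID from -0.14 to 0.0784, BAD from -0.40 to 0.17, BBC3 from -0.39 to 0.24, XIAP from -0.78 to 0.11 and BTRC from -0.35 to 0.13. Without shCON library 2, BID had 0.0061 and BBC3 0.0989. For the turns other than those of median centring the cause was not tested.

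In LNCaP, 2 or 3 members passed 1.5-fold under every alternative, but not always the same ones. BBC3 ranged from -1.31 to -1.01, PMAIP1 from -1.09 to -0.79, MCL1 from -0.68 to -0.43 and BID from 0.44 to 0.70. MCL1 was under the limit with totals without the 10 most counted genes (-0.56) and with protein-coding totals (-0.58, added after seeing the data). It was also under it with TMM or DESeq2 factors and with the median of all genes set to 0 (-0.44). With TMM factors, DESeq2 factors and that median scaling BID passed 1.5-fold as higher (0.67, 0.70 and 0.68). At 2-fold, 4 of 40 list genes passed, beside 1684 of 14767 genes (11.4%). Without a filter on low counts 12432 of 27475 genes passed 1.5-fold. The order of levels placed 6 of 10 members at the rank of the mean in shPAX6 library 1 alone and 6 of 10 in parental LNCaP alone.

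Counting error is the only error known in LNCaP, where BCL2, BBC3 and PMAIP1 rest on 34 to 113 counts. In DU145 the depth is unknown and the spread of the 3 shPAX6 libraries sets the precision.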
